A study of Mus musculus with 8 samples.

Results

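The miR-182, miR-183 and miR-96 cluster is a group of 3 microRNA (miRNA) genes that lie together on mouse chromosome 6. Its members were taken as mmu-miR-182-5p, mmu-miR-183-5p and mmu-miR-96-5p, the 5p strands of the 3 hairpins, by the names printed in the array files. They are 3 of 1881 miRNAs on the array. Kidney miRNAs were measured on 8 Agilent mouse arrays, on which labelled total RNA binds short probes complementary to mature miRNAs. The LPS group (4 arrays, replicates 6, 10, 11 and 12) was kidney of mice given 10 µg of lipopolysaccharide per g of body weight into the peritoneal cavity, a model of acute kidney injury. The sham group (4 arrays, replicates 5, 6, 7 and 8) was kidney of mice given saline by the same route. In both groups kidneys were collected after 24 h, RNA was extracted from 30 mg of tissue and 100 ng of it was labelled. The labels give no strain, age or sex and do not state that each array came from its own animal. The p-values therefore measure the spread between these samples, which may be technical.

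A miRNA guides an Argonaute protein to messenger RNAs that pair with its seed, and it lowers their translation and stability. The 3 members are cut from a shared primary transcript and have closely related seeds. They are best known from sensory cells of the retina and inner ear, where seed mutations of miR-96 cause hearing loss in mice and people. In mouse helper T cells miR-182 is induced on activation and represses Foxo1. Lipopolysaccharide, from the outer membrane of Gram-negative bacteria, is sensed through Toll-like receptor 4.

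The mature sequences, from RefSeq on build GRCm38.p6, are shown because the seeds of the 3 members are closely related. Capitals mark the seed, bases 2 to 8 counted from 1 at the 5′ end.
miR-182-5p: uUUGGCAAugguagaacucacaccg
miR-183-5p: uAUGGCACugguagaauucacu
miR-96-5p: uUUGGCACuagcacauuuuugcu
All 3 are read from the minus strand, at chr6:30165962-30165986 for miR-182-5p, chr6:30169711-30169732 for miR-183-5p and chr6:30169506-30169528 for miR-96-5p. Relative to miR-182-5p, miR-96-5p carries 1 seed difference, A8C, and miR-183-5p carries U2A and A8C. Between miR-183-5p and miR-96-5p the seeds differ by A2U. The only other miRNA of the RefSeq table with a member's seed was miR-1271-5p, which shares that of miR-96-5p and is not among the miRNAs of the array.

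The hairpins were ordered Mir183, Mir96 and Mir182 along the transcribed strand, with 116 bases between the first pair and 3453 between the next. The annotation placed all 3 inside the long non-coding RNA gene Mirc35hg and gave no other gene overlapping that gene. The hairpins are shown with the measured strand in capitals.
Mir183: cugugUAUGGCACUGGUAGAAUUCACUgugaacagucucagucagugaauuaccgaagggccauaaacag
Mir96: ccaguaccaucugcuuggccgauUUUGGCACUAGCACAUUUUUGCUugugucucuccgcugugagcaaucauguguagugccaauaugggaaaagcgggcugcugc
Mir182: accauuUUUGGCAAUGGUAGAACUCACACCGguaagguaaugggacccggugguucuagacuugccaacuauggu

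Each member had 2 probes with 15 spots each on every array. The probes are shown because they read different stretches of the related sequences. Capitals are not used in them.
miR-182-5p, A_54_P2347: cggtgtgagttctac
miR-182-5p, A_54_P2348: cggtgtgagttctacc
miR-183-5p, A_54_P2350: agtgaattctaccagtgc
miR-183-5p, A_54_P2351: agtgaattctaccagtgcc
miR-96-5p, A_54_P1331: agcaaaaatgtgctagtgcca
miR-96-5p, A_54_P1332: agcaaaaatgtgctagtgccaa
The miR-182-5p probes covered bases 11 to 25 and 10 to 25 of the miRNA and no seed base. The miR-183-5p probes covered bases 5 to 22 and 4 to 22, and those of miR-96-5p bases 3 to 23 and 2 to 23. None was fully complementary to another mature miRNA of the table. The closest pair was probe A_54_P2351, at which miR-182-5p has the same base as miR-183-5p at 16 of 19 positions. Cross-binding between those miRNAs was not tested.

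In what follows, a level is the background-subtracted signal summed over a miRNA's probes, in percent of the array's 75th percentile over 551 probes above background on all arrays. Detection on an array required at least 1 probe with over 50% of its spots well above background. Levels under a floor of 3.91% (-4.68 on the log2 scale) were raised to it for the limma fit. The fit took 338 miRNAs, those that all 4 arrays of either group detected. At an adjusted p under 0.05 it called 136 of them (40.2%), of which 50 were higher (14.8%) and 86 lower (25.4%) in LPS kidney.

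The arrays lay on 1 slide, with LPS arrays in row 2 and sham arrays in row 1, so row and group cannot be told apart. Between 342 and 359 miRNAs were detected on LPS arrays, against 336 to 375 on sham arrays. The median intensity of the labelling spike-ins was 10838 ± 428 on LPS arrays and 9751 ± 103 on sham arrays (SD, n = 4 each), with no overlap (2-sided exact permutation p = 0.0286). Scaled to these spike-ins, the log2 difference was 0.45 for miR-182-5p and 0.52 for miR-96-5p, both still called (limma adjusted p = 0.0142 and 0.0301). The 7 miRNAs listed as kidney tubule markers were detected on all 8 arrays; 4 of them fell (miR-192-5p, miR-194-5p, miR-204-5p and miR-30c-5p) and 0 rose, with a summed level of 78.2 to 90.4 times the 75th percentile in LPS kidney against 89.4 to 95.1 in sham kidney. All 6 leukocyte miRNAs were detected, 2 rose (miR-223-3p and miR-155-5p) and 0 fell, with sums of 3.45 to 3.72 against 2.26 to 3.12. Of 5 neural miRNAs, miR-124-3p and miR-137-3p were detected on 0 arrays and 1, miR-9-3p, rose, with sums of 0.323 to 0.460 in LPS kidney against 0.322 to 0.409 in sham kidney. The 5 general epithelial miRNAs were all detected, with 1, miR-429-3p, lower and 0 higher, at sums of 29.7 to 34.7 against 32.5 to 35.6. Liver miR-122-5p was detected on 0 arrays, and of 3 striated muscle miRNAs only miR-1a-3p was detected, at 0.151 to 0.166 summed over the list in LPS kidney against 0.118 to 0.174 in sham kidney. The part of other cell types in the members' results was not tested. In bulk kidney, a change in the number of cells of a type and in the RNA per cell cannot be told apart.

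Of the 2 members that entered the fit, miR-182-5p and miR-96-5p, both passed the test as higher in LPS kidney, where 14.8% of all tested miRNAs rose. miR-182-5p passed the detection filter only through the LPS arrays, the group where it is high, so its call depends in part on that filter. With no filter, over 1881 miRNAs, neither was called (limma adjusted p = 0.202 for miR-182-5p and 0.322 for miR-96-5p). miR-183-5p missed the detection filter by 1 array and had no test in that fit. 

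**Figure D1:**
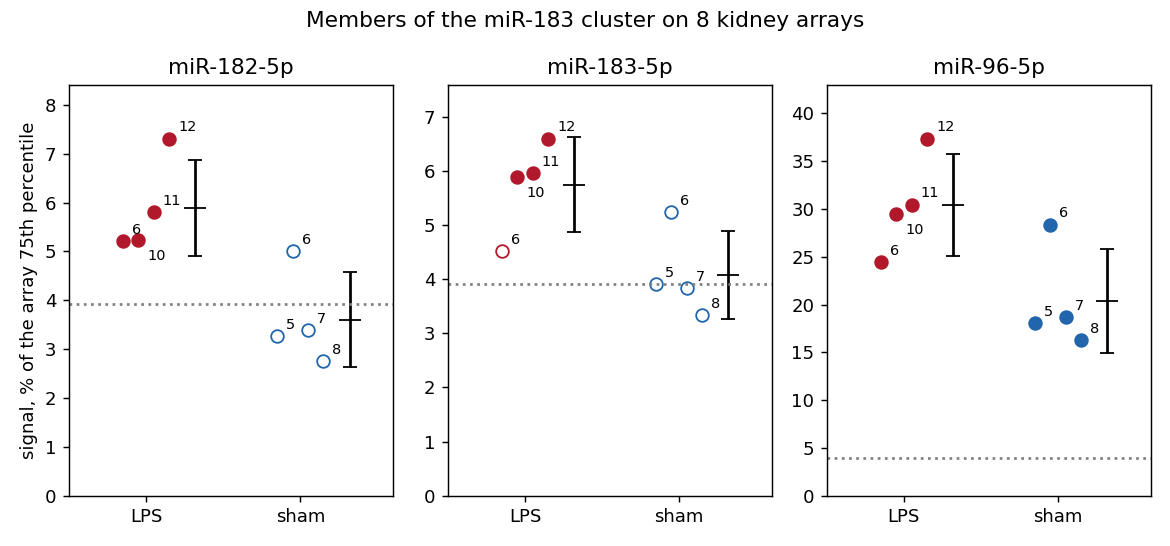
Level of each member (vertical axis, percent of the array's 75th percentile, a separate scale per panel) in LPS and sham kidney; each point is 1 array with its replicate number, filled where the miRNA was detected, the bar is the mean and SD of 4 arrays and the dotted line the floor of 3.91%. LPS arrays of miR-182-5p lie above all its sham arrays, and sham replicate 6 reaches into the LPS range for the other members.

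miR-182-5p had a level of 5.21, 5.22, 5.81 and 7.31% on LPS replicates 6, 10, 11 and 12, against 3.26, 5.0, 3.38 and 2.75% on sham replicates 5, 6, 7 and 8. Every LPS array was above every sham array, as for 12.1% of the 338 tested miRNAs, and the narrowest gap was to sham replicate 6. The level averaged 5.89 ± 0.99% in LPS kidney and 3.60 ± 0.97% in sham kidney (SD, n = 4 each; 2-sided exact permutation p = 0.0286, the smallest that 4 against 4 arrays allow).

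The miRNA was detected on 4 of 4 LPS arrays and 0 of 4 sham arrays, and 3 sham levels lay at the floor. The log2 difference of floored levels was 0.49 ± 0.13 (SE, limma adjusted p = 0.0205), a value set by the floor: it was 0.73 with the floor 1 log2 unit lower and 0 with it 1 unit higher. Since sham levels were not well above background, the fold is given as a bound on the group means, without sampling error. On these means, probe A_54_P2348 was at least 1.28-fold higher in LPS kidney. Its measured means were 4.85 ± 0.80% against 2.93 ± 0.62% (SD, n = 4 each). The limma test of this probe did not use these measured means. It used values raised to a probe floor of -4.85 (log2), under which sham replicates 5, 7 and 8 lay. That test gave a log2 difference of 0.43 (95% interval 0.18 to 0.68, adjusted p = 0.0157), and the floor hides spread among the sham arrays. The probe entered the test only through the LPS arrays, the group where it is high. Its result is therefore no separate support for a difference. A bound sets the mean of the bright group against the higher of the dim probe and the lowest signal well above background on each array.

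That probe carried the detection of miR-182-5p. Of its 15 spots, 9, 15, 14 and 15 were well above background on LPS replicates 6, 10, 11 and 12, against 1, 5, 1 and 2 on sham replicates 5, 6, 7 and 8. The LPS and sham counts did not overlap, which detection on the LPS arrays alone through this probe already implies. It is therefore no further support for a difference. Probe A_54_P2347, shorter by 1 base, had 0 such spots on any array and averaged 1.04 ± 0.19% in LPS kidney against 0.669 ± 0.391% in sham kidney (SD, n = 4 each). The software's own looser rule detected miR-182-5p on 3 sham arrays.

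The call for miR-182-5p was lost without sham replicate 7 (adjusted p = 0.0545, limma) or sham replicate 8 (0.0542), and with slide column as a block (0.0613). It was also lost under normexp background correction, where the log2 difference was 0.063 (adjusted p = 0.354) and with the higher floor, at which all its levels lay.

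**Figure D2:**
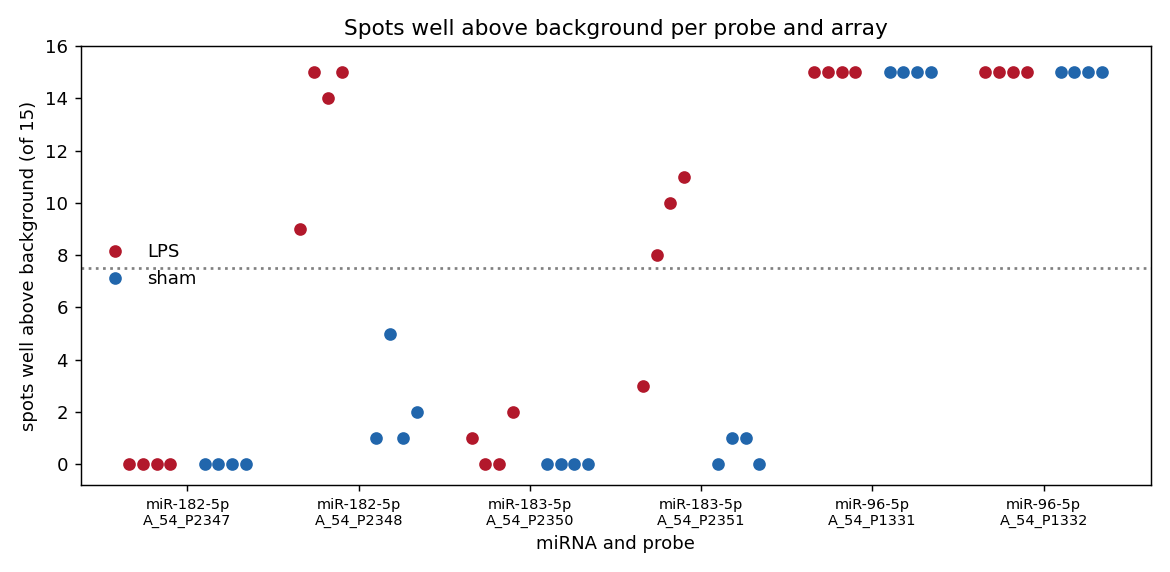
Number of a probe's 15 spots that were well above background (vertical axis) for each of the 6 member probes (horizontal axis); each point is 1 array, LPS left of sham, and the dotted line marks 50% of the spots. Both miR-96-5p probes have all 15 spots above background on every array. The longer probes of miR-182-5p and miR-183-5p have higher counts on LPS than on sham arrays, which their detection on LPS arrays alone largely implies.

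miR-183-5p had a level of 4.51, 5.89, 5.96 and 6.60% on LPS replicates 6, 10, 11 and 12, against 3.91, 5.24, 3.83 and 3.33% on sham replicates 5, 6, 7 and 8. The groups overlapped, with sham replicate 6 above LPS replicate 6. The means were 5.74 ± 0.88% in LPS kidney and 4.08 ± 0.82% in sham kidney (SD, n = 4 each), a difference that did not pass the 2-sided exact permutation test (p = 0.0571).

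Detection of miR-183-5p came from probe A_54_P2351, on 3 of 4 LPS arrays and 0 of 4 sham arrays. Of its 15 spots, 3, 8, 10 and 11 were well above background on LPS replicates 6, 10, 11 and 12, against 0, 1, 1 and 0 on sham replicates 5, 6, 7 and 8. Again the LPS counts lay above the sham counts, as detection through this probe already implies for LPS replicates 10, 11 and 12. LPS replicate 6 fell short of the 50% rule. How many other probes separate the groups in this way was not counted. Probe A_54_P2350, 1 base shorter, had 1, 0, 0 and 2 such spots on the LPS arrays and 0 on every sham array. By the software's own looser rule miR-183-5p was detected on 4 LPS arrays and 2 sham arrays.

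When the 404 miRNAs detected on at least 1 array were fitted, of which 13.6% rose, miR-183-5p entered through its LPS arrays alone, with a log2 difference of floored levels of 0.43 ± 0.14 (SE, limma adjusted p = 0.0430). Since 3 of its 4 sham levels lay at the floor, that size depends on the floor, and with no filter the adjusted p was 0.322. The call rests on settings: with slide column as a block in the same fit the adjusted p was 0.0662, and with normexp correction the difference was 0.032 (adjusted p = 0.613). Leaving out LPS replicate 6, the lowest LPS array and the only one that did not detect it, let the miRNA pass the original filter (0.54, adjusted p = 0.0117), so that value is no support for a difference. No bound on a fold is given, because the one computed as for miR-182-5p was under 1.

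miR-96-5p had a level of 24.4, 29.5, 30.5 and 37.4% on LPS replicates 6, 10, 11 and 12, against 18.0, 28.4, 18.7 and 16.3% on sham replicates 5, 6, 7 and 8. Here too 1 sham array, replicate 6, lay above LPS replicate 6, and the other 3 sham arrays lay below every LPS array. The level averaged 30.4 ± 5.33% in LPS kidney and 20.3 ± 5.45% in sham kidney (SD, n = 4 each; 2-sided exact permutation p = 0.0571).

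This was the only member well above background throughout, with all 15 spots of both probes on all 8 arrays. limma gave a log2 difference of 0.60 ± 0.19 (SE), or 1.52-fold higher in LPS kidney (95% interval 1.12 to 2.05, adjusted p = 0.0356). The probes gave like values, 0.60 ± 0.18 for A_54_P1331 (adjusted p = 0.0311) and 0.60 ± 0.19 for A_54_P1332 (adjusted p = 0.0394), among 633 probes tested of which 38.9% changed and 14.2% rose. Ranked by log2 difference among the 338 tested miRNAs, miR-96-5p was 28th from the top.

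The call for miR-96-5p was lost on leaving out any of 6 arrays, with limma adjusted p-values of 0.0604, 0.0795 and 0.0891 without LPS replicates 10, 11 and 12, and 0.0720, 0.0801 and 0.0907 without sham replicates 5, 7 and 8. It was lost with slide column as a block (0.0721) and under normexp correction, where the log2 difference was 0.26 (adjusted p = 0.0656), and it held without LPS replicate 6 or sham replicate 6.

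The members ordered the arrays alike. For all 3, LPS replicate 12 was the highest and LPS replicate 6 the lowest of the LPS arrays, and sham replicate 6 was the highest and sham replicate 8 the lowest of the sham arrays. Sham replicate 6 also had the lowest 75th percentile of the 8 arrays (470.2 intensity units) and the fewest detected miRNAs (336). Without any scaling, the miR-96-5p sum on it was still 133 intensity units, the highest of the sham arrays, of which the lowest was 81.4. LPS replicate 6 had the fewest detected miRNAs of the LPS arrays (342). Its negative controls had the highest SD of the 8 arrays, 7.86 intensity units, and the next highest was 3.85 on sham replicate 5. The order was not particular to the members. miR-9-5p, named below for its correlation with miR-96-5p, had the same highest and lowest arrays in each group. Its levels were 12.8, 19.2, 19.4 and 21.3% on LPS replicates 6, 10, 11 and 12. On sham replicates 5, 6, 7 and 8 they were 13.8, 17.9, 13.7 and 12.1%. miR-200c-3p, miR-17-5p and let-7i-5p matched that order only in part.

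**Figure D3:**
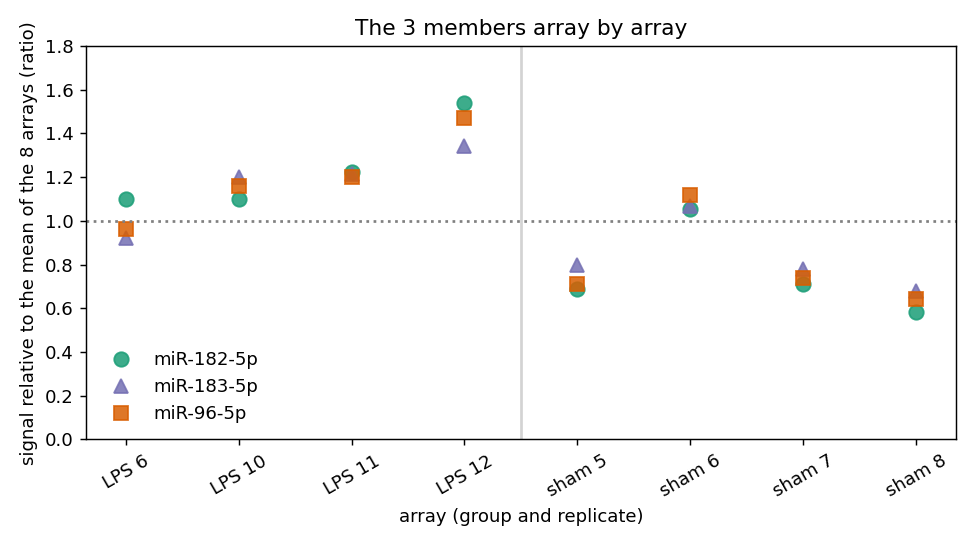
Level of each member divided by its own mean over the 8 arrays (vertical axis, ratio) for each array (horizontal axis), with LPS arrays left of the grey line and sham arrays right of it; the symbols are the 3 members and the dotted line is a ratio of 1. The symbols lie close together on each array and reach 1.54 on LPS replicate 12, against 0.581 on sham replicate 8, both for miR-182-5p.

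Each of the 4 slide columns held 1 LPS and 1 sham array, and in every column the LPS array was the higher for all 3 members. How many of the other tested miRNAs did so was not counted. For miR-182-5p the result already follows from its groups not overlapping. Since the members ordered the arrays alike, these are not 3 separate results. For miR-96-5p the LPS over sham ratio was 1.36, 1.04, 1.63 and 2.30 in columns 1 to 4. For miR-182-5p the log2 difference of floored levels was as small as 0.063, in column 2, which pairs LPS replicate 10 with sham replicate 6. Without that column, an alternative chosen after seeing the data, the log2 difference was 0.63 for miR-182-5p (limma adjusted p = 0.0167) and 0.78 for miR-96-5p (adjusted p = 0.0181). Column 2 held the smallest difference of both miRNAs, so these values are no support for a difference.

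Ratios between members tested whether their differences were unequal. The log2 ratio of miR-182-5p to miR-183-5p was higher by 0.23 in LPS kidney (2-sided exact permutation p = 0.0571, n = 4 each). For miR-182-5p to miR-96-5p the difference was 0.13 (exact p = 0.0857), and for miR-183-5p to miR-96-5p it was -0.10 (exact p = 0.171). None of the 3 pairs passed the test, which does not show that the members changed equally, and sham levels of the dim members enter these ratios.

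The other strands of the hairpins, miR-182-3p, miR-183-3p and miR-96-3p, are usually discarded after processing. They were detected on 0 of 8 arrays. Their 8 probes lay between -1.0 and 0.596% of the 75th percentile, and 3 of 360 spots on LPS arrays against 0 of 360 on sham arrays were well above background. No difference in these strands was measurable at that signal.

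The miRNAs most like each tested member were picked by Pearson correlation of levels over the 8 arrays, among 305 detected on all of them. For miR-182-5p these were miR-200c-3p (r = 0.894), miR-17-5p (r = 0.888) and let-7i-5p (r = 0.856). For miR-96-5p they were miR-200c-3p (r = 0.950), miR-9-5p (r = 0.929) and let-7i-5p (r = 0.922). The points share slide, scaling and group, so the coefficients describe these arrays alone.

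Of these likest miRNAs only miR-17-5p rose in LPS kidney, by 0.42 ± 0.07 on the log2 scale (SE, limma adjusted p = 0.00187). Its levels were 20.6, 21.7, 19.6 and 22.5% on LPS replicates 6, 10, 11 and 12, against 16.1, 17.0, 14.9 and 15.2% on sham replicates 5, 6, 7 and 8, with no overlap. miR-200c-3p, an epithelial miRNA, had a difference of 0.30 ± 0.12 that did not pass (adjusted p = 0.0802). Its LPS levels of 132, 165, 170.2 and 188% overlapped sham levels of 131, 154, 119 and 127% in the same replicate order.

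The promoter of the host gene Mirc35hg is shown because the members share its transcript. It covers chr6:30174076-30174375 on the minus strand of GRCm38.p6, from 250 bases before the RefSeq start to 50 after it, and 70.3% of it is G or C.
Mirc35hg: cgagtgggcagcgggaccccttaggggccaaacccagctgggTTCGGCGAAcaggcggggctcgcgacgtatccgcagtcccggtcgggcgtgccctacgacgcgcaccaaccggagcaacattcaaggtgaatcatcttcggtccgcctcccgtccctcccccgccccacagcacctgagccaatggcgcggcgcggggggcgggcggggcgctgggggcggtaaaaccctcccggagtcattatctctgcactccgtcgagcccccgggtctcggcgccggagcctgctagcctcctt
Capitals mark the 1 match to the STAT motif TTCNNNGAA, at base 43, a motif held by 8.3% of 32851 promoters of that length. On either strand the window held no match to the NF-κB motif (8.5% of promoters), the E-box CACGTG (7.2%) or the TCF/LEF motif CTTTGAT (3.7%). With only 1 match, the motifs could not share a position in this window. These are letters in a window and say nothing of binding.

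**Figure D4:**
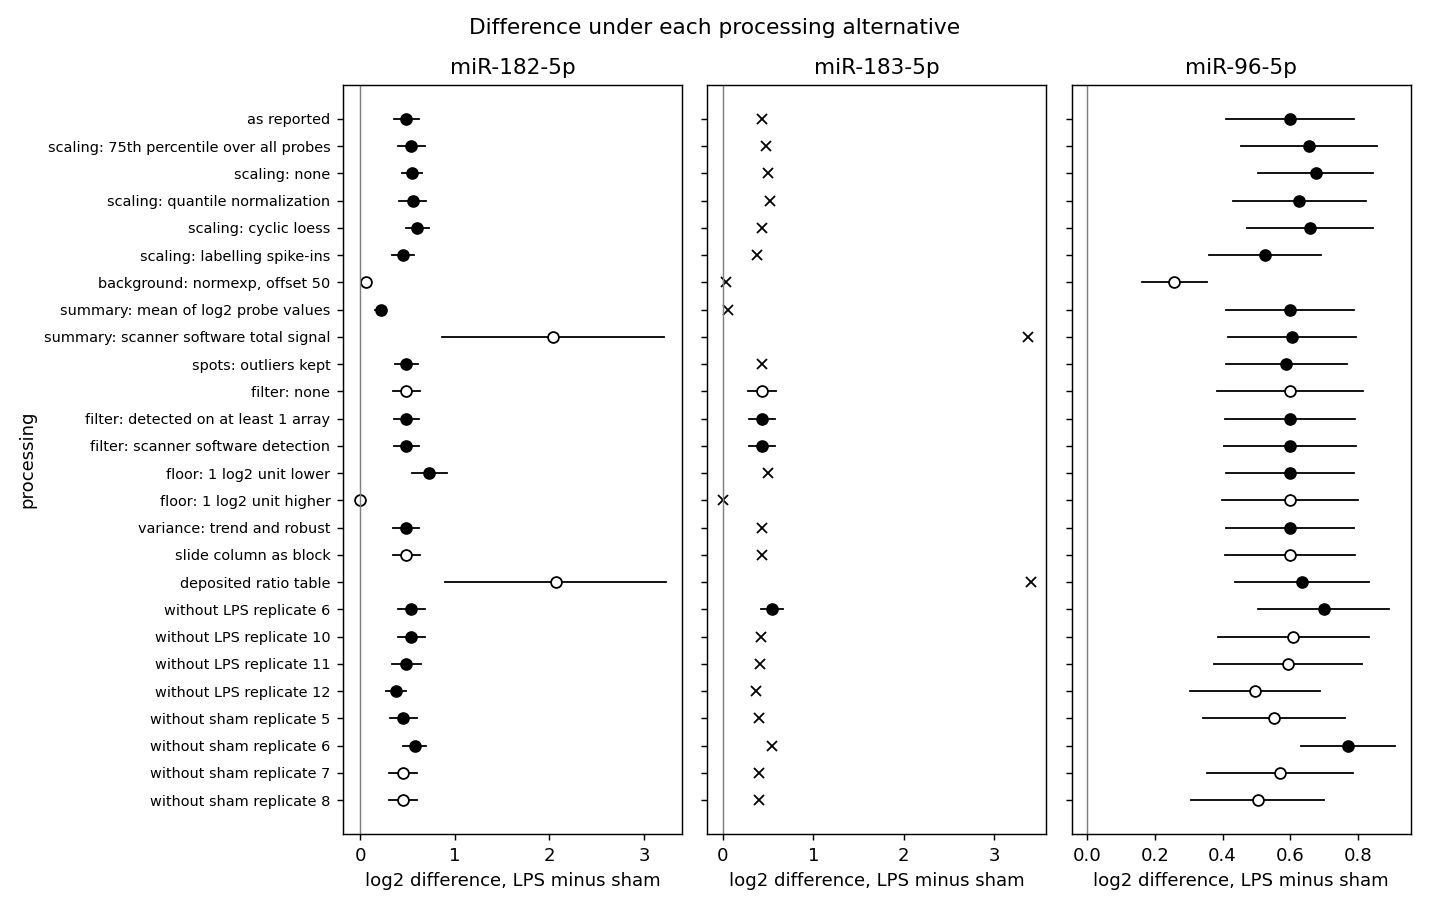
Log2 difference, LPS minus sham (horizontal axis, a separate scale per panel), for each member as reported and under each of 25 processing alternatives (vertical axis); filled circles passed an adjusted p under 0.05, open circles did not, crosses had no test and bars are SE. miR-96-5p stays between 0.26 and 0.77, and the dim members reach from 0 to 2.06 (miR-182-5p) and 3.40 (miR-183-5p).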

How the data were processed

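The authors deposited each array's scanner output, as intensities per spot. Per the file headers they were background-subtracted with spatial detrending and not scaled between arrays; per the submitters' processing notes the software was Agilent Feature Extraction 12.0.3.1. The authors also deposited a table of linear ratios, centred per miRNA, whose array factors are not given in the sources used here. Over 383 miRNAs its centred log2 values tracked those of the scanner's total signal, with a correlation of 1 on every array, which settles direction. A correlation does not test the size of the differences. Its column medians were 0.958, 0.960, 1.01 and 1.03 for LPS replicates 6, 10, 11 and 12, against 0.995, 1.06, 1.05 and 0.980 for sham replicates 5, 6, 7 and 8.

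Outlier spots were dropped, spots averaged per probe (4415 probes, 56430 spots), arrays scaled as described above, probes summed, floored and log2-transformed; 0.851% of tested values were at the floor, which hides spread. Groups were tested 2-sided, without covariates, by lmFit and eBayes (limma 3.58.1, R 4.3.3), with Benjamini-Hochberg adjustment over all miRNAs or probes tested. The same fit was tested on simulated data without a floor and with larger changes than the members' reported differences. That test does not bear on the members' calls. Members' unfloored sums had exact permutation tests over arrays (1 per member). Members and marker lists were chosen with earlier results of these data known. Named miRNAs are the members, their other strands, seed relatives and the 3 miRNAs most correlated with each tested member; miR-223-3p, miR-155-5p, miR-124-3p, miR-137-3p, miR-192-5p, miR-194-5p, miR-204-5p, miR-30c-5p, miR-9-3p, miR-429-3p, miR-122-5p and miR-1a-3p were named from the marker lists after their values were seen. The number of arrays limits the precision. Sequences came from RefSeq tables, in which all 3 members were matched.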

Additional observations from a re-analysis of the deposited data

How the results depend on the processing

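No paired analysis was possible because, by replicate number, the groups share only number 6; slide columns, which hold 1 array of each group, served as a block instead. Over 25 alternatives the log2 difference, LPS minus sham, of miR-96-5p was positive in all 25 and called in 15; that of miR-182-5p was positive in 24 and called in 17; that of miR-183-5p was positive in 24, tested in 4 and called in 3. Leaving out 1 array gave 0.38 to 0.58 for miR-182-5p, 0.36 to 0.54 for miR-183-5p, 0.50 to 0.77 for miR-96-5p and 88 to 151 changed miRNAs against 136 (88 without LPS replicate 12 or sham replicate 6). Calls were lost at the same difference with no filter (0.49 for miR-182-5p, 0.60 for miR-96-5p, adjusted p 0.202 and 0.322, with 1881 miRNAs tested) and with slide column as a block (0.49 and 0.60, adjusted p 0.0613 and 0.0721). With the floor 1 log2 unit higher miR-96-5p kept 0.60 (adjusted p 0.0519), and the others were at 0. Normexp gave 0.063 for miR-182-5p, 0.032 for miR-183-5p and 0.26 for miR-96-5p; its offset of 50 exceeds every unscaled level of the dim members, of which the highest was 36.1. The scanner's total signal and the deposited ratios, in which undetected levels have a very low value, gave 2.04 and 2.06 for miR-182-5p (adjusted p 0.203 and 0.213) and 3.38 and 3.40 for miR-183-5p, untested. The mean of log2 probes gave 0.057 for miR-183-5p. That miRNA was called at 0.43 with 404 miRNAs fitted or with scanner detection (adjusted p 0.0430 and 0.0456). Among alternatives chosen after seeing the data, leaving out slide column 2 kept both calls. That is no support for a difference, because this column held the smallest differences of miR-182-5p and miR-96-5p. In the other such alternatives, fitted on 404 miRNAs, spike-in scaling gave miR-183-5p 0.38 (adjusted p 0.0336). The column block left 0.49 and 0.60 for miR-182-5p and miR-96-5p uncalled (adjusted p 0.0709 and 0.0823). For miR-182-5p, miR-183-5p and miR-96-5p, normexp gave 0.063, 0.032 and 0.26. The deposited ratios gave 2.06, 3.40 and 0.63 in the same order (adjusted p 0.244, 0.110 and 0.0563). Changed miRNAs numbered 60 with no filter, 80 with the block and 87 with the block on 404. The split of 50 higher and 86 lower became 42 and 122 with spike-in scaling, 55 and 53 with the percentile over all probes, 57 and 49 unscaled and 65 and 66 with cyclic loess; both tested members were called in these. Probe calls were lost under normexp (0.12 for A_54_P2348, 0.23 and 0.28 for the miR-96-5p probes), and those of miR-96-5p also with the block. Signal over background limits miR-182-5p and miR-183-5p, and their detection on 0 sham arrays depended on the rule. When over 50% of spots had only to be positive and significant, each was detected on 4 sham arrays. Where no cause is given, the cause was not tested.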
